A study of Mus musculus with 6 samples.

Results

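Organic ion transporters of brain barriers were followed in mouse cortex as 10 solute carrier genes, out of 18193 genes with a probe set whose platform annotation names that gene and no other. They were measured by 15 of the 45101 probe sets on each array. They were divided by the barrier each is best known from into 8 meningeal carriers (Slc22a2, Slc22a6, Slc22a8, Slc6a13, Slc6a20a, Slc13a3, Slc13a4 and Slc47a1) and 2 endothelial carriers (Slco1c1 and Slco1a4). The samples came from the BAC transgenic line ES691, in which the S100a10 driver puts a tag on the ribosomes of the cells it marks, backcrossed from FVB for 3-5 generations to C57BL/6 and given no treatment. The ages and number of mice per sample are not given in the sources used here. Translating ribosome affinity purification (TRAP) recovers the tagged ribosomes with their mRNA, and 3 such precipitates were set against 3 samples of unbound whole cortex RNA from the same line, which titles call input and descriptions mark UB. The series title names cortical pyramidal cells, but its text states that the transgene also labels some non-neuronal cells, and it recommends a published set of probe sets that was not used here, so every value covers all labelled cells. The series text calls the TRAP replicates independent and titles call all samples biological replicates, but no source used here gives the animals behind each, so p-values measure only how these samples vary and may reflect technical spread.

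The brain is separated from blood by the capillary endothelium, by the choroid plexus epithelium and by the meninges, whose arachnoid layer forms a barrier around the cortex. Carriers of the SLC22, SLC47 and SLCO families move organic anions and cations, including metabolites, hormones and drugs, across such barriers. SLC13 carriers bring in dicarboxylates or sulfate with sodium, and SLC6 carriers bring in amino acids and related compounds with sodium and chloride. In leptomeninges the anion exchangers of the SLC22 family and a sodium-dicarboxylate carrier are known to occur together, and in endothelium SLCO carriers take up thyroid hormone and conjugated anions.

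All 8 meningeal carriers were higher in TRAP RNA, by 13.5-fold to 24.4-fold. Of the endothelial carriers, Slco1c1 was 5.94-fold lower in TRAP RNA. Slco1a4 was not called on the values as deposited but was called higher after median centring and after quantile normalisation of the arrays. A gene was called at an adjusted p below 0.05 by limma, with Benjamini-Hochberg adjustment over 12070 genes. By that rule 69.0% of the genes tested were called, 23.3% higher and 45.7% lower in TRAP RNA. All TRAP samples lay above all unbound samples for the 8 meningeal carriers, as for 25.9% of genes tested, and below them for Slco1c1, as for 49.6%. In a test against a 2-fold change (limma's treat), which called 4.53% of genes higher and 6.56% lower, the 8 meningeal carriers again passed upward and Slco1c1 downward. The meningeal carriers had a median log2 fold change of 4.35, against -0.21 over all genes tested. They took ranks from 32 to 111 among 12070 genes ordered by log2 fold change. Whether a difference came from more or fewer cells of a type among the labelled cells or from more or less of the mRNA in each cell cannot be told apart.

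**Figure D1:**
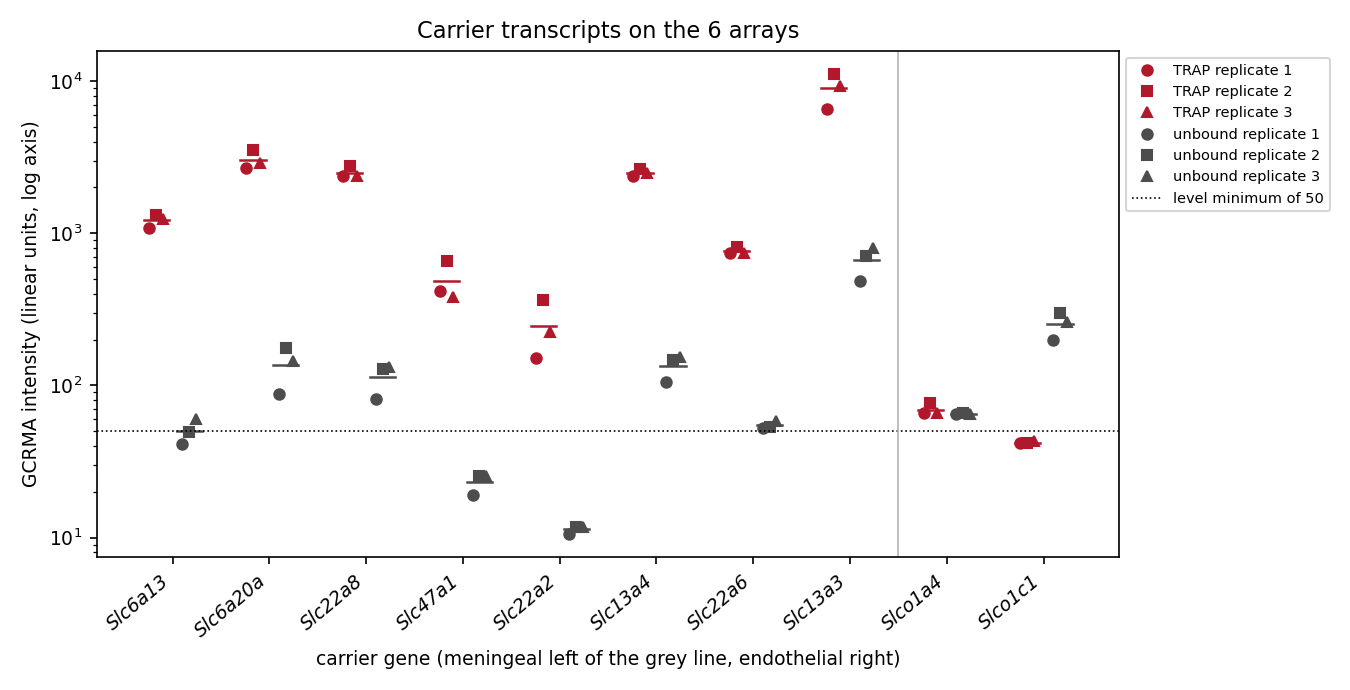
GCRMA intensity (linear units on a log axis) of the 10 carriers, each by its probe set with the highest mean, in 3 TRAP samples (red, left) and 3 unbound samples (grey, right); points are arrays, short lines are group means, and the dotted line is the level minimum of 50. The groups do not overlap for the 8 meningeal carriers and for Slco1c1, and they overlap for Slco1a4.

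Properties of the arrays bear on these values. Median intensity over all probe sets was 31.4 to 31.8 on the TRAP arrays and 42.4 to 43.1 on the unbound arrays. The series text advises a level minimum of 50 in wording that can be read as 1 group or both. A mean of 50 in at least 1 group was required here, and under the stricter reading 7 carriers could be tested, without Slc22a2, Slc47a1 and Slco1c1. Arrays of the same group, taken in pairs, had identical values at 17.9% to 21.6% of the probe sets that passed it, and arrays of different groups at 0%. Of the 15 carrier probe sets, 10 held such a repeated value within a group, so their spread may understate the error. No source used here says whether the arrays of both groups were normalised together. Separate normalisation would bear on every fold and call between the groups, and its part was not tested. All 10 carriers passed the level minimum, but Slc22a2 and Slc47a1 passed only through TRAP RNA and Slco1c1 only through unbound RNA, so a difference in these 3 was built into their selection.

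The organic anion exchangers Slc22a6 (Oat1) and Slc22a8 (Oat3) take up organic anions, including metabolites of transmitters and many drugs, in exchange for dicarboxylates, and Slc22a8 is also known from choroid plexus and brain endothelium. Slc22a8 measured 2379, 2742 and 2379 in TRAP samples 1 to 3, against 81.7, 127 and 132 in unbound samples 1 to 3. Every TRAP sample was at least 18.0 times the highest unbound sample. The log2 fold change of Slc22a8 was 4.49 (SE 0.21, 22.5-fold), and the limma adjusted p was 4.08e-05. A second Slc22a8 probe set gave 755, 997 and 776 in TRAP samples, against 27.7, 35.9 and 27.7 in unbound samples, a log2 fold change of 4.79 (SE 0.16). Both probe sets of the gene thus separated the groups completely. Slc22a6 measured 737, 814 and 737 in TRAP samples, against 52.7, 53.6 and 58.8 in unbound samples. This gave a log2 fold change of 3.79 (SE 0.07, 13.9-fold, limma adjusted p = 2.32e-06), and the repeated TRAP value of 737 narrows that error. The other Slc22a6 probe set gave 344, 352 and 344 in TRAP samples, against 40.4, 43.1 and 36.7 in unbound samples, with a lower log2 fold change of 3.12 (SE 0.06).

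Slc22a8 and Slc22a6 are neighbours on chromosome 19 in the RefSeq gene table, and both rose in TRAP RNA. Slc22a30, the gene on the other side of Slc22a8, stayed under 50 on every array, at 7.82 ± 0.158 in TRAP samples and 5.80 in each unbound sample (SD, n = 3). To show what lies before their starts, the 250 bases upstream of Slc22a6 (chr19:8617746-8617995, plus strand), Slc22a8 (chr19:8592932-8593181, plus strand) and Slc6a20a (chr9:123678833-123679082, minus strand) are printed from the RefSeq promoter table of build GRCm38.p6, 5′ to 3′, with the hexamer GTTAAT in capitals. These letters are the core of the motif bound by HNF1 factors, known for the kidney expression of Slc22a6 and Slc22a8.
Slc22a6: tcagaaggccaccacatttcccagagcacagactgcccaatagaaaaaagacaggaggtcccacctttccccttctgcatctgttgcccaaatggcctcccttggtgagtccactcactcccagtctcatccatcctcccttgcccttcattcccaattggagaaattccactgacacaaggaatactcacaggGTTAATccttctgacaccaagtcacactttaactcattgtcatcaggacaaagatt
Slc22a8: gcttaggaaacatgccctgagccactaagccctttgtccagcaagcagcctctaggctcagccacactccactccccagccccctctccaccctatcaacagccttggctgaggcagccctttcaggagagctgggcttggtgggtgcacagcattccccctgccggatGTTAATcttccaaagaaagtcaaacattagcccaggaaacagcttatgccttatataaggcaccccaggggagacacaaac
Slc6a20a: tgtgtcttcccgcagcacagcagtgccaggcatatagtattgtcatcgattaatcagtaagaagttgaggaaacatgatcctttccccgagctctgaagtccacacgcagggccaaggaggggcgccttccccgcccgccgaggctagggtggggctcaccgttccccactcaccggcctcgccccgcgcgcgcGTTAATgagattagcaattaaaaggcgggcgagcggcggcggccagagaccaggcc

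The hexamer began at base -56 in Slc22a6, -81 in Slc22a8 and -56 in Slc6a20a, counted from the start site. Upstream windows of 250 bases were given for 9 of the 10 carriers, in 11 windows because Slc6a13 has 3 listed starts. GTTAAT or its reverse complement lay in a window of 4 of these 9 carriers, the fourth being Slc6a13 at its second listed start. It lay in 6.43% of all 32851 windows in the table. It was picked after the sequences had been seen, so the count is a description of these windows. Other motifs searched on both strands were TGTTTA (forkhead), in 2 carriers and 12.0% of all windows, CCAAT, in 6 carriers and 33.8% of all windows, CACGTG (E-box), in 1 carrier and 6.02% of all windows, and TATAAA, in 0 carriers and 12.4% of all windows. In Slc22a6 a CCAAT at base -97 overlaps its reverse complement at base -94.

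The organic cation carriers are Slc22a2 (Oct2), which lets organic cations cross the membrane down their gradient, and Slc47a1 (Mate1), which exports them in exchange for protons. Slc47a1 measured 416, 657 and 382 in TRAP samples, against 18.9, 25.2 and 25.2 in unbound samples. Slc47a1 was thus 20.5-fold higher, or 4.36 on the log2 scale (SE 0.25, limma adjusted p = 8.52e-05). Slc22a2 measured 152, 362 and 223 in TRAP samples, against 10.6, 11.7 and 11.7 in unbound samples, a log2 fold change of 4.35 (SE 0.33, 20.4-fold, limma adjusted p = 0.000217). TRAP sample 2 was the highest of its group for both genes, and the TRAP and unbound ranges were far apart. Because the unbound values lie near background, the folds are imprecise. With values under 50 raised to 50, Slc47a1 was 9.41-fold and Slc22a2 4.62-fold higher in TRAP RNA. Slc47a2, the neighbour of Slc47a1, was not analysed here.

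The sodium-coupled SLC13 carriers also rose. Slc13a3 (NaDC3) takes up dicarboxylates such as those exchanged by the SLC22 anion carriers, and Slc13a4 takes up sulfate. Slc13a4 measured 2358, 2635 and 2477 in TRAP samples, against 106, 146 and 153 in unbound samples. Slc13a4 was thus 18.7-fold higher, or 4.22 on the log2 scale (SE 0.16, limma adjusted p = 1.98e-05). Slc13a3 measured 6568, 11149 and 9274 in TRAP samples, against 482, 709 and 799 in unbound samples, by a probe set whose suffix, _x_at, warns of possible cross-hybridisation. The lowest TRAP sample was 8.22 times the highest unbound sample. For this probe set the log2 fold change was 3.76 (SE 0.28, 13.5-fold, limma adjusted p = 0.000211). An unmarked Slc13a3 probe set gave 1986, 2305 and 2657 in TRAP samples, against 114, 148 and 156 in unbound samples, and a log2 fold change of 4.06 (SE 0.17). The 2 other Slc13a3 probe sets lay under 50 on every array, at 25.4 ± 0.829 and 5.78 ± 0.0874 in TRAP samples, against 12.3 and 5.13 ± 0.119 in unbound samples (SD, n = 3), with smaller differences.

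Of the SLC6 carriers, Slc6a13 (GAT2) takes up GABA and taurine, and Slc6a20a takes up proline and other imino acids. Slc6a13 measured 1086, 1323 and 1233 in TRAP samples, against 41.0, 49.7 and 60.2 in unbound samples. That is a log2 fold change of 4.61 (SE 0.16), a 24.4-fold difference (limma adjusted p = 1.69e-05) and the highest among the carriers' main probe sets. Slc6a20a measured 2689, 3534 and 2909 in TRAP samples, against 87.5, 177 and 144 in unbound samples. Its log2 fold change was 4.53 (SE 0.29, 23.2-fold, limma adjusted p = 0.000119). Both genes separated the groups with no overlap. Slc6a12, which encodes a betaine and GABA carrier and lies next to Slc6a13 on chromosome 6, was called higher as well, at 84.4, 110 and 99.0 in TRAP samples, against 11.3 in each unbound sample. It was 8.59-fold higher (limma adjusted p = 1.27e-05), or 1.94-fold with values under 50 raised to 50. Slc6a12 passed the level minimum only through TRAP RNA, so a higher TRAP value was built into its selection. Slc6a20b, next to Slc6a20a, stayed under 50 on every array, at 8.11 ± 0.259 in TRAP samples and 8.43 in each unbound sample (SD, n = 3).

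**Figure D2:**
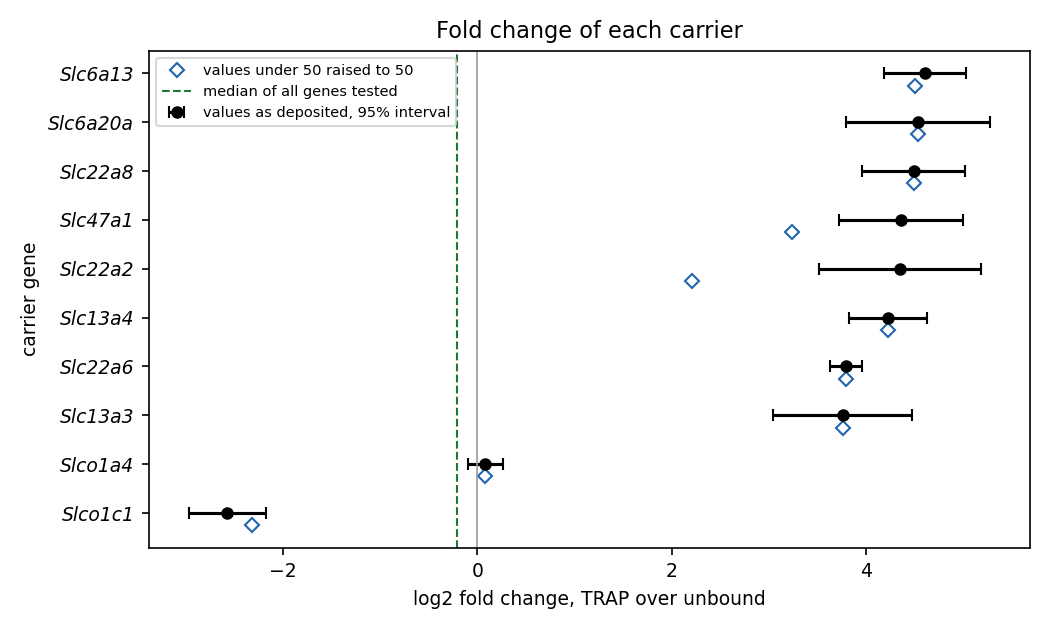
Log2 fold change of TRAP over unbound for each carrier (black points, with 95% limma intervals), and the same with values under 50 raised to 50 (blue diamonds); the dashed green line is the median of all genes tested, -0.21. The 8 meningeal carriers lie between 3.76 and 4.61, Slco1a4 at 0.08 and Slco1c1 at -2.57, and the diamonds move left most for Slc22a2 and Slc47a1.

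By main probe sets and values as deposited, the meningeal carriers ran in order of log2 fold change Slc6a13, Slc6a20a, Slc22a8, Slc47a1, Slc22a2, Slc13a4, Slc22a6 and Slc13a3. With values under 50 raised to 50, Slc6a20a (4.53) passed Slc6a13 (4.51), and Slc47a1 (3.23) and Slc22a2 (2.21) came last. On values as deposited, the second Slc22a8 probe set (4.79) lay above every main probe set. Its unbound mean was 30.5, so it passed the level minimum only through TRAP RNA. With values under 50 raised to 50, its ratio of group means was 16.9, against 22.7 for Slc6a13. It thus no longer lay above every main probe set. Neighbours in the deposited order had overlapping 95% intervals throughout. Of all pairs within the 8 on those values, the intervals of Slc6a13 (4.19 to 5.02) and Slc22a6 (3.62 to 3.96) were the only ones that did not overlap. Each meningeal carrier's interval lay above those of Slco1a4 (-0.10 to 0.26) and Slco1c1 (-2.97 to -2.18), which did not overlap each other either.

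The endothelial carriers belong to the SLCO family of organic anion transporting polypeptides. Slco1c1 takes up thyroxine at brain capillaries, and Slco1a4 takes up a wide range of organic anions there. Slco1c1 measured 41.5, 41.5 and 42.9 in TRAP samples, against 199.9, 299 and 259 in unbound samples. Every TRAP sample was below every unbound sample. Its log2 fold change was -2.57 (SE 0.15, limma adjusted p = 9.82e-05), and with values under 50 raised to 50 the difference was 4.99-fold. Slco1a4 measured 65.7, 76.5 and 65.7 in TRAP samples, against 64.9, 66.1 and 64.9 in unbound samples. The groups overlapped, and its log2 fold change of 0.08 (95% interval -0.10 to 0.26, limma adjusted p = 0.330) did not pass the threshold. After each array was centred on its median, which moved the median of all genes to 0.23, Slco1a4 was called higher (log2 0.52, limma adjusted p = 0.00179). It was also called higher after quantile normalisation, which put that median at 0.0037 (log2 0.41, limma adjusted p = 0.00490). The call for Slco1a4 thus turned on the scaling. Its values, 64.9 to 76.5, lay not far above the level minimum of 50 and held a repeated value in each group. How far low signal shaped this result was not tested.

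Upstream windows of both endothelial carriers, which lie in the same cluster on chromosome 6, share a run of 14 bases. They are printed from the same table and build for Slco1c1 (chr6:141524104-141524353, plus strand) and Slco1a4 (chr6:141856221-141856470, minus strand), 5′ to 3′, with the shared run in capitals.
Slco1c1: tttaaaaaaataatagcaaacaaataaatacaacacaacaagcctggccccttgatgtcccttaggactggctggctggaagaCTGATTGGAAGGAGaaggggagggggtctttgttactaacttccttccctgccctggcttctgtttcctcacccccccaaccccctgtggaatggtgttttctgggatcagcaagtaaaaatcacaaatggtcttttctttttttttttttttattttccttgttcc
Slco1a4: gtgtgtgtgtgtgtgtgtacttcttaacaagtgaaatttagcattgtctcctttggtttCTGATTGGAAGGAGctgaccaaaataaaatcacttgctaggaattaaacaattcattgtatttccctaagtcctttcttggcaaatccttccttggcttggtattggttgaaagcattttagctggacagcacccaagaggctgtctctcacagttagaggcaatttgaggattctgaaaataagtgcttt
Of all 32851 windows, these 2 alone held the run on either strand. The run was picked as the longest that these 2 windows share, so its absence elsewhere is only a description. The run contains ATTGG, the reverse complement of CCAAT. Among 52 pairs of windows from different carriers the median longest shared run was 9 bases, and the longest, 18 bases between Slco1a4 and the third start of Slc6a13, was a GT repeat. Slco1a4 and Slco1c1 had the lowest G and C content of the carrier windows, at 39.2% and 42.8%, against 48.4% to 67.6% for the meningeal carriers and a median of 52.4% over all windows. The adjacent family members were low. Slco1a1, next to Slco1a4, was at 18.6 ± 0.325 in TRAP samples and 20.3 in each unbound sample, and Slco1b2, next to Slco1c1, at 7.37 in each TRAP sample and 9.61 ± 1.08 in unbound samples (SD, n = 3). Probe sequences were not used here, so cross-hybridisation between SLCO paralogues was not examined.

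Replicate numbers were taken to pair the samples. For Slc22a8 the ratio of TRAP to unbound was 29.1, 21.5 and 18.0 for numbers 1 to 3, and for Slc6a20a it was 30.7, 20.0 and 20.2. The highest ratio fell on number 1 for these carriers. For Slc22a2 it was 14.4, 30.9 and 19.1, with the highest on number 2, where Slc47a1 also had its highest ratio (26.1). For Slco1c1 it was 0.208, 0.139 and 0.165, under 1 in each. By their main probe sets, all 8 meningeal carriers were highest in TRAP sample 2 within the TRAP group and lowest in unbound sample 1 within the unbound group. Other probe sets differed, the unmarked one of Slc13a3 being highest in TRAP sample 3 and the second of Slc22a6 lowest in unbound sample 3. Of all genes tested, 27.9% had TRAP sample 2 highest and 22.1% had unbound sample 1 lowest. Without TRAP sample 2 and without unbound sample 1 in turn, the 8 were still called higher.

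**Figure D3:**
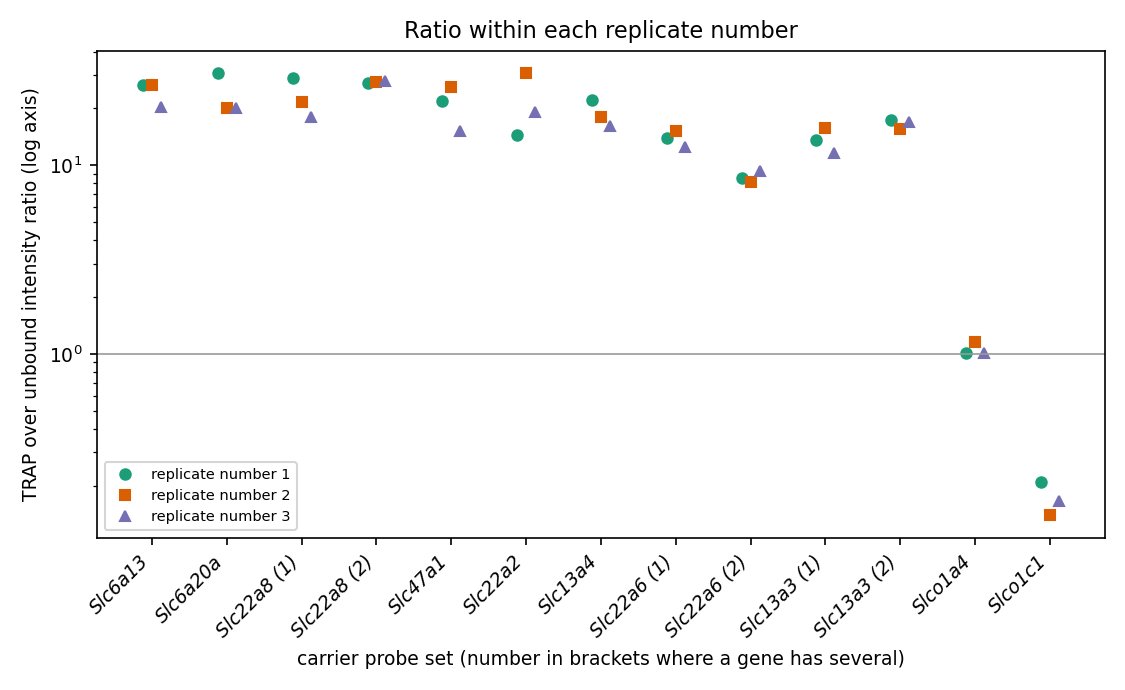
Ratio of TRAP to unbound intensity (log axis) within each replicate number for the 13 carrier probe sets that passed the level minimum, with numbers in brackets where a gene has several. Every meningeal ratio lies between 8.17 and 30.9, those of Slco1a4 lie between 1.01 and 1.16, and those of Slco1c1 between 0.139 and 0.208.

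Counts over the lists that follow stand beside the 23.3% of all genes tested that were called higher and the 45.7% called lower, and a count near those shares says nothing particular about its list. Of 36 other SLC22, SLC47 and SLCO genes, 31 had a probe set with a single symbol and 20 of these fell below the level minimum. Of the 11 tested, 4 were higher and 4 lower in TRAP RNA (against 23.3% and 45.7% of all genes, median log2 fold change -0.21, the same as over all genes to 2 decimals), or 5 higher and 3 lower after median centring. Slco4a1, another thyroid hormone carrier, was 3.05-fold higher, at 202, 397 and 207 in TRAP samples, against 82.9, 91.8 and 77.4 in unbound samples (limma adjusted p = 0.00554). Slc22a16, a carnitine carrier, was 2.10-fold higher, or 1.14-fold after low values were raised to 50. Slco5a1 and Slco4c1 were 4.40-fold and 4.34-fold lower, with TRAP means of 21.0 and 18.7, against unbound means of 92.0 and 79.9. After low values were raised to 50 they were 1.84-fold and 1.60-fold lower. Slco5a1, Slco4c1 and Slco2b1, all called lower, passed the level minimum only through unbound RNA. Slc22a16 and Slco2a1, both called higher, passed it only through TRAP RNA. Of 8 other SLC6 and SLC13 genes tested out of 21 listed, Slc6a12 was the only one higher, and 4 were lower (23.3% and 45.7% of all genes), led by Slc6a15, an amino acid carrier of neurons (2.22-fold, limma adjusted p = 8.69e-05), and the glycine carrier gene Slc6a9 (1.69-fold), whose call was lost after median centring. Centring gave 2 higher and 1 lower on that list, and quantile normalisation 1 higher and 2 lower. Slc6a12 passed the level minimum only through TRAP RNA.

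Of 15 other carriers known from the blood-brain barrier that were tested, out of 19 listed, 8 were lower and 2 higher, where 45.7% and 23.3% of all genes were (median log2 fold change -0.85), or 6 lower and 3 higher after median centring. Mfsd2a, which carries lipids with docosahexaenoic acid into the brain, was at 25.1 ± 2.51 in TRAP samples, against 195 ± 80.8 in unbound samples (SD, n = 3). That was 7.25-fold lower, or 3.63-fold with values under 50 raised to 50 (limma adjusted p = 0.00156). Slc16a4, a monocarboxylate carrier family gene, was 15.5-fold lower (2.16-fold after low values were raised to 50). It measured 6.97 in each TRAP sample, against a mean of 109 in unbound samples. Slc16a4, Mfsd2a and Slc40a1, all lower, passed the level minimum only through unbound RNA, so a difference was built into their selection. The higher genes were the efflux pump genes Abcb1a (3.79-fold) and Abcg2 (2.30-fold), at 142 ± 9.28 and 926 ± 166 in TRAP samples, against 37.6 ± 1.45 and 398 ± 14.6 in unbound samples (SD, n = 3). Abcb1a passed the level minimum only through TRAP RNA and was 2.84-fold higher after low values were raised to 50. Of 15 other transporters of leptomeninges tested out of 17 listed, 8 were higher and 4 lower (23.3% and 45.7% of all genes, median 0.35). Slc7a11, the cystine-glutamate exchanger, was 10.3-fold higher but uneven, at 466, 149 and 380 in TRAP samples, against 27.4, 26.9 and 32.9 in unbound samples (limma adjusted p = 0.00191). Slc26a7, an anion exchanger, was 8.01-fold higher. Both had unbound means under 50, and after low values were raised to 50 they were 5.96-fold and 5.13-fold higher. Slc5a3, a myo-inositol carrier, and Slc4a4, a sodium-bicarbonate carrier, were 3.15-fold and 2.94-fold lower.

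**Figure D4:**
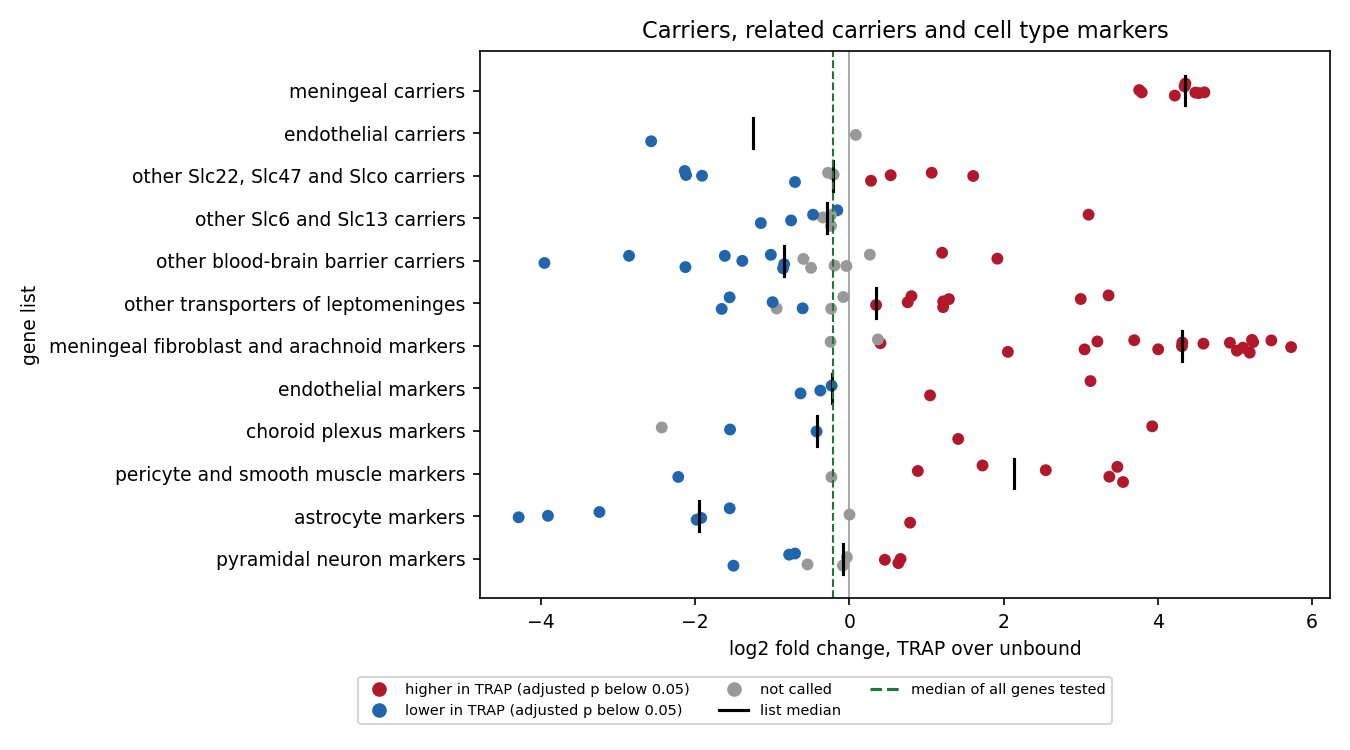
Log2 fold change of TRAP over unbound for each tested gene of 12 lists, red where called higher in TRAP, blue where called lower and grey where not called; black bars are list medians and the dashed green line is the median of all genes tested. The meningeal carriers (median 4.35) lie in the range of the meningeal fibroblast and arachnoid markers (median 4.32), while the other carrier lists spread on both sides of 0.

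Marker lists were read beside the carriers, and their part in the carrier results was not tested. Of 20 meningeal fibroblast and arachnoid markers, 19 were tested and 17 were higher in TRAP RNA, against 23.3% of all genes. The 2 not called on the values as deposited were Klf5 (log2 fold change 0.37) and Cldn11 (-0.24). Among those called, Dpp4 was only 1.32-fold higher, while Cdh1 was 16.1-fold higher, from an unbound mean of 20.8. Lum, Cdh1, Omd, Col1a2, Foxc2 and Foxc1 passed the level minimum only through TRAP RNA. A higher TRAP value in these genes was thus built into their selection. The list itself was chosen with earlier results of these data known. Foxd1 and Foxc2, forkhead factors of meningeal cells, were 53.1-fold and 44.5-fold higher (for Foxc2, 41.1-fold after low values were raised). The summed intensity of the list was 88022 to 95380 on TRAP arrays and 10609 to 14599 on unbound arrays. Of 15 endothelial markers with a probe set, 10 lay under 50 on every array, among them Pecam1, Cdh5, Tek, Tie1 and Kdr, so few could be measured in either group. Of the 5 tested, 2 were higher and 3 lower (23.3% and 45.7% of all genes), or 3 higher and 1 lower after median centring. The endothelial sum of 4455 to 4822 in TRAP samples, against 961 to 965 in unbound samples, rests mostly on Itm2a, which was 8.74-fold higher at 4088 ± 171 in TRAP samples, against 467 ± 3.35 in unbound samples (SD, n = 3). Eng was 2.07-fold higher, at 188 in each TRAP sample and 91.2 in each unbound sample, so its call rests on repeated values. Sox17 and Cldn5 were 1.55-fold and 1.30-fold lower. Sox17 passed the level minimum only through unbound RNA and was 1.11-fold lower after low values were raised to 50. The Cldn5 call was lost after median centring and after quantile normalisation.

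Choroid plexus epithelium, which also uses several of these carriers, was checked by 11 markers with a probe set, of which 6 lay under 50 on every array, Folr1, Otx2, Aqp1 and Cldn2 among them. Of the 5 tested, 2 were higher and 2 lower (23.3% and 45.7% of all genes), the lower ones being Cldn3 (2.92-fold, or 1.78-fold after low values were raised to 50) and Clic6 (1.34-fold, a call lost after median centring and quantile normalisation). Ttr, the transthyretin gene that choroid plexus transcribes heavily, was at 35.0, 36.4 and 175 in TRAP samples, against 159, 76.3 and 2886 in unbound samples, so unbound sample 3 stood apart. Without unbound sample 3, the meningeal carriers had log2 fold changes from 3.84 to 4.75 and Slco1c1 of -2.54. Kcnj13, a potassium channel gene also used as a choroid plexus marker, was 15.2-fold higher in TRAP RNA, and Kl was 2.66-fold higher, though 1.08-fold after low values were raised to 50. The summed intensity of the list was 967 to 1171 in TRAP samples, against 421 to 3229 in unbound samples. It rests mostly on Kcnj13 in TRAP samples and mostly on Ttr in unbound sample 3. Kl and, by a narrow margin, Kcnj13 passed the level minimum only through TRAP RNA, and Cldn3 only through unbound RNA.

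Pericyte and smooth muscle markers were higher for 6 of 8 tested and lower for 1 (23.3% and 45.7% of all genes), with Myl9 and Vtn 11.7-fold and 11.1-fold higher and Rgs5 4.66-fold lower. The 4 others of the 12 listed fell below the level minimum, with lower means in TRAP samples. These were 5.17 for Abcc9, 8.67 for Kcnj8, 10.4 for Myh11 and 5.25 for Cnn1, against 48.2, 14.9, 24.0 and 7.33 in unbound samples. The sum over all 12 was 5615 to 7033 in TRAP samples and 2066 to 2404 in unbound samples. Of the 6 higher, Atp13a5 passed the level minimum only through TRAP RNA. Astrocyte markers were lower for 6 of 8 (45.7% of all genes), while Aldh1l1 was 1.73-fold higher. Gfap was 19.6-fold lower (7.66-fold after low values were raised to 50) and Aqp4 15.0-fold lower. Gfap and Slc7a10, also lower, passed the level minimum only through unbound RNA. Pyramidal neuron markers, for the cells named as the target, were higher for 3 of 9 and lower for 3 of 9 (23.3% and 45.7% of all genes, median -0.08), or 5 higher and 2 lower after median centring. Nrgn and Emx1 were 1.58-fold and 1.55-fold higher, and Camk2a and Tbr1 were 2.84-fold and 1.72-fold lower.

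The genes with the most similar pattern were found by the root mean square difference of log2 values over the 6 arrays, each gene taken relative to its own mean. For Slc6a13, which had the largest increase by main probe sets and values as deposited, the 5 nearest genes were another carrier, Slc22a8 (difference 0.131), the BMP ligand gene Bmp6 (0.137), the cytochrome P450 gene Cyp1b1 (0.137), the lactate receptor gene Hcar1 (0.144) and the lysyl oxidase family gene Loxl1 (0.174). Their fold changes were 22.5, 22.8, 26.1, 23.0 and 21.4. The measure covers both groups, so similar fold changes among the nearest genes follow from it. Cyp1b1, Hcar1 and Loxl1 passed the level minimum only through TRAP RNA, with means of 416, 137 and 184 in TRAP samples, against 16.0, 5.98 and 8.57 in unbound samples, so their folds rest on values near background. For Slco1c1 they were Depp1 (0.125), the T cell co-receptor gene Cd4 (0.135), the potassium channel gene Kcnj16 (0.140), the orphan receptor gene Gpr101 (0.141) and the glycosyltransferase gene Galnt6 (0.150), each lower in TRAP RNA by 4.98-fold to 6.76-fold. Apart from Depp1, at a mean of 171 in TRAP samples and 1101 in unbound samples, the TRAP means of these genes lay under 20.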

How the data were processed

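RNA from 3 TRAP and 3 unbound samples was amplified from 15 ng with a 2-cycle kit and hybridised to Affymetrix arrays, per the labels' protocols. The authors deposited linear-scale intensities from GCRMA, per the submitters' processing notes. Its version, and whether the 6 arrays were normalised together, are not given in the sources used here. The table held 6 separate columns, of which 0 were unused. Gene symbols came from the platform annotation: 34958 probe sets had 1 symbol, 932 several and 9211 none, and 64 control probe sets were left out. Of those with 1 symbol, 34754 matched the GRCm38.p6 RefSeq table, which changed 0 symbols. Upstream sequences are RefSeq's, of build GRCm38.p6.

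Values were taken as log2 without a pseudocount. A probe set was kept at a group mean of 50 or more in at least 1 group, and each gene was represented by its kept probe set with the highest mean. Groups were compared by limma's moderated two-sided test, with no term other than group (limma 3.58.1, R 4.3.3), and p-values were adjusted by Benjamini-Hochberg over 12070 genes. Each adjusted p comes from limma. The script was tested on simulated data. An exact permutation test of 3 against 3 cannot go below 0.1 and was not used for single genes. The number of arrays limits precision. Replicate numbers come from the titles and were taken to pair the samples. Deviations from group means correlated across genes at 0.385 to 0.466 between same-numbered samples, against -0.317 to -0.106 between others. Such deviations cancel out within each group, so the negative correlations go with the positive ones and are no separate evidence. The p-values and SEs given for single genes leave the pairing out, and the replicate block was run as an alternative. The carriers and gene lists were chosen with earlier results of these data known. Genes named are the carriers, their listed neighbours and, from every list, the most changed called genes (up to 4, no more than 2 per direction). The 5 nearest genes to the most changed carrier in each class were also named, clone-like symbols left out. Tie1, Tek, Pecam1, Cdh5, Kdr, Folr1, Otx2, Aqp1, Cldn2 and Ttr were added after their values were seen. So were Klf5, Cldn11, Dpp4, Cdh1, Abcc9, Kcnj8, Myh11 and Cnn1. The promoter motifs were chosen after the sequences were seen. Alternatives covered scaling, filters, raised low values, probe set choice, the variance prior, a replicate block, repeated values, treat and leaving out each sample.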

Additional observations from a re-analysis of the deposited data

How the results depend on the processing

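The 8 higher meningeal carriers and the lower Slco1c1 kept direction and call under every alternative that tested them, 15 to 17 for each gene. The filters, each probe set on its own, the variance prior, the replicate block and treat left these fold changes as they were. Under those alternatives only the call could change, not the direction. With Slco1a4 added, 9 carriers were higher after median centring and after quantile normalisation. Slco1c1 was not tested when both group means had to reach 50, which left 7 carriers, with 6 called higher and 0 lower. On probe sets without repeated values within a group 4 carriers could be tested, of which 4 were called higher and 0 lower. Leaving out 1 sample at a time gave 8 carriers higher and 1 lower each time.

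Over all genes, 2812 were called higher and 5517 lower, 33.8% of calls being higher. Median centring gave 5713 and 2692 (68.0% higher) and quantile normalisation 4113 and 3983 (50.8%). No filter gave 4797 and 8354, each probe set on its own 4261 and 9458, probe sets without repeated values 1372 and 2734, and treat 547 and 792. Leaving out 1 sample gave 2442 to 2822 higher and 4859 to 5215 lower. With the replicate block, 8 carriers were higher and 1 lower (2990 and 5799 over all genes), and the block changed no call of a carrier. Their limma adjusted p was larger with the block, from 0.000544 to 0.00172 for the carriers called, against 2.32e-06 to 0.000217 without it. Intensities near background limit the folds of Slc22a2, Slc47a1 and Slco1c1, and of the second probe sets of Slc22a8 and Slc22a6. Slco1a4 also lay not far above the level minimum on every array.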
